A study of Homo sapiens with 14 samples.

Results

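The DNA replication machinery was followed here as 51 genes, chosen by symbol from the known components of origin licensing, the replicative helicase, the polymerases, the sliding clamp, fork protection and chromatin copying. All 51 symbols had a row in each of 3 deposited tables, which together held 16336 gene rows, and all 51 passed the filter on low counts in every comparison. Transcripts were measured by RNA-seq in 14 libraries, 2 for each of 7 groups, from 2 human leukaemia cell lines: MV4;11, an acute myeloid leukaemia line with a KMT2A fusion, and EOL-1, a line from an eosinophilic leukaemia. In MV4;11, cells with a hairpin RNA against EZH2 (shEZH2) were set against the control labelled EV, and cells with 1 of 2 guide RNAs against MYC, guide 5 or guide 1 (sgcMyc), were set against the control labelled sgEV. In EOL-1, cells with a guide RNA against EZH2 (sgEZH2) were set against a control of their own, also labelled sgEV. All 7 groups, controls included, carried a doxycycline treatment of 1 µg/ml for 4 days. The labels do not say whether the lines with hairpin or guides were clones or pools, nor whether replicate libraries stem from cultures grown apart, so the spread behind each p-value is that of libraries and may be technical.

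A cell copies its genome once per cycle. The origin recognition complex (ORC), with CDC6 and CDT1, loads rings of the MCM2 to MCM7 helicase onto DNA before S phase, and geminin holds CDT1 back afterwards. The kinase CDC7 with DBF4, together with MCM10, CDC45 and the GINS complex, turns the loaded rings into moving helicases. Polymerase alpha with primase starts each strand, polymerases epsilon and delta extend the leading and lagging strands on the PCNA clamp, and FEN1 and LIG1 join the lagging pieces. UHRF1, DNMT1 and the CHAF1 complex copy DNA methylation and nucleosomes behind the fork. Many of these genes are known targets of the E2F transcription factors, and MYC is known as a driver of cell growth and cycle genes. EZH2 is the methyltransferase of Polycomb repressive complex PRC2.

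The targeted transcripts were checked first. EZH2 stood at 9.75 and 9.70 CPM in shEZH2 libraries, against 73.3 and 75.8 CPM in EV libraries (log2 fold change -2.94 ± 0.07), and in EOL-1 at 27.8 and 26.1 CPM in sgEZH2 libraries, against 70.7 and 70.4 CPM in sgEV libraries (-1.39 ± 0.05). MYC stood at 818 and 822 CPM with guide 5 and 866 and 872 CPM with guide 1, against 658 and 660.4 CPM in sgEV libraries, so the transcript was higher in the libraries labelled sgcMyc (0.36 ± 0.04, adjusted p = 1.34e-05). A cut by Cas9 need not lower a transcript, and protein was not measured in these files. Gene counts came to 13313052 to 16274568 per library in MV4;11 and 24574102 to 30256823 in EOL-1. CPM below are each gene's share of its library's counts in the usual unit, with library totals scaled by TMM (trimmed mean of M values). A log2 fold change is given ± SE with n = 2 libraries per group, and adjusted p is that of edgeR's quasi-likelihood test after Benjamini-Hochberg adjustment over all genes tested, with a threshold of 0.05 for a call.

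Levels of cell markers and RNA composition moved with the groups. Of 12 myeloid markers, 8 had a row in the MV4;11 tables and 7 in the EOL-1 table, and the eosinophil genes EPX, PRG2, CLC and IL5RA were not among those of EOL-1. The summed level of the markers with a row was 1547 to 1573 unscaled CPM in shEZH2 libraries, against 1412 to 1426 in EV libraries. LYZ, the lysozyme gene of mature myeloid cells, made up 492 to 499 in shEZH2 and 189 to 203 in EV libraries. FLT3 went the other way (394 to 400 against 534 to 558), and of 7 markers tested 2 were called higher and 2 lower. In sgcMyc libraries the sum was 4895 to 5211, against 1711 to 1736 in sgEV libraries. LYZ made up 3417 to 3709 of it in sgcMyc and 158 to 159 in sgEV libraries. FLT3 was lower there too (493 to 548 against 685 to 711), with 4 of 7 markers called higher and 1 lower. In EOL-1 the sum was 2482 to 2487 in sgEZH2 libraries, against 858 to 870 in sgEV libraries. LYZ made up 1623 to 1627 of it in sgEZH2 and 197 to 203 in sgEV libraries. FLT3 was higher in this line (137 to 142 against 123 to 125), and all 7 markers tested were called higher. Summed markers of B cells stayed at or below 7.57 CPM, epithelial markers at or below 18.1 CPM, and the T and NK cell list, of which 1 gene had a row, at or below 113 CPM. The endothelial list, of which PECAM1 is also expressed by myeloid cells, summed to 76.6 to 77.8 CPM in shEZH2 against 115 to 126 CPM in EV libraries, 282 to 312 CPM in sgcMyc against 185 to 188 CPM in sgEV libraries, and 16.2 to 16.4 CPM in sgEZH2 against 9.06 to 9.55 CPM in sgEV libraries of EOL-1. The erythroid and fibroblast lists had no row. Mitochondrial genes took 2.79 to 2.80% of counts in shEZH2 libraries against 2.18 to 2.22% in EV, 3.14 to 3.44% in sgcMyc against 2.41 to 2.47% in sgEV, and 1.14% in sgEZH2 against 1.05 to 1.06% in sgEV of EOL-1. The part of these shifts in the results below was not tested.

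Promoter windows of 45 of the 51 genes were found in the RefSeq table for GRCh38.p14, each running from 250 bases before to 50 bases after the start of the gene, and MCM4, MCM5, GINS4, POLD3, RPA2 and RPA3 had no entry. Letters of the E2F site (TTTCCCGC, TTTGCCGC, TTTCGCGC or TTTGGCGC, read on both strands) stood in 20 of the 45 windows, or 44.4%. The same letters stood in 3.31% of all 35116 windows and in 5.75% of the 8418 windows of genes tested in all 3 tables. Some of these letters overlap each other, since a TTTGGCGC followed by GAAA holds a TTTCGCGC on the other strand, and the 4 matches of MCM6 lie at 2 places. The E-box letters CACGTG, a site of MYC among other factors, stood in 7 of the 45 windows (15.6%), against 10.7% of windows of tested genes and 7.26% of all windows. The letters TTTGAA of the cell cycle homology region (CHR), a site of late cell cycle genes, stood in the window of DBF4 alone (2.22%), against 9.56% and 15.2%. The letters of the E-box and the CHR are no part of those of E2F. The stretches below lie upstream of the start of 6 genes, picked because they hold E2F letters and are named in the results, with those letters in capitals. FEN1, PRIM1, RFC1, RPA1 and TIMELESS also changed in the sgcMyc libraries and hold none in their windows.
MCM6: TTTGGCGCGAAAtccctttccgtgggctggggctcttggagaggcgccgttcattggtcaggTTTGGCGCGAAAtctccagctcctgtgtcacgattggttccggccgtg
MCM3: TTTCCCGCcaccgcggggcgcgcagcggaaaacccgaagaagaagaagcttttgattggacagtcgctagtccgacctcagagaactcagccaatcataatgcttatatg
UHRF1: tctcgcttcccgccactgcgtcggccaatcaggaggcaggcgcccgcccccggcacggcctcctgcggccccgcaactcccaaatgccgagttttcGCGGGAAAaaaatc
CDT1: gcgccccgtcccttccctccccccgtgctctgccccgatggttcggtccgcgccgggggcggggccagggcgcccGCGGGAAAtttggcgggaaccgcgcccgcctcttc
PCNA: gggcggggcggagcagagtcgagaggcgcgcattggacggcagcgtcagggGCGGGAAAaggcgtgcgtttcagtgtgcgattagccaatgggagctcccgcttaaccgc
POLE: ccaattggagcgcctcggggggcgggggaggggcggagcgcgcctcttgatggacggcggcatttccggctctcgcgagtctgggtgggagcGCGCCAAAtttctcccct
These are 110 bases each on the strand of the gene, in GRCh38.p14: MCM6 at chr2:135876486-135876595, minus strand; MCM3 at chr6:52284807-52284916, minus strand; UHRF1 at chr19:4909391-4909500, plus strand; CDT1 at chr16:88803679-88803788, plus strand; PCNA at chr20:5126623-5126732, minus strand; POLE at chr12:132687343-132687452, minus strand. MCM3 holds a second E2F match nearer to its start, outside the printed stretch. A match is a run of letters and not a measured site, and a window without one says only that these letters are not in it.

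**Figure D1:**
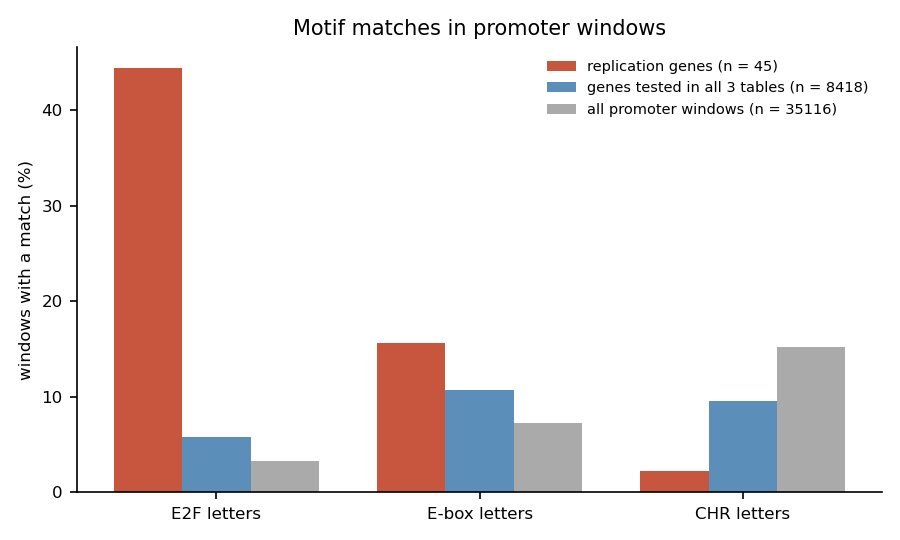
Share of promoter windows (vertical axis, %) that hold the E2F, E-box or CHR letters on either strand, for 45 replication genes, 8418 genes tested in all tables and all 35116 windows of the RefSeq table. The E2F bar of the replication genes stands at 44.4%, above 5.75% and 3.31%, while their CHR bar stands at 2.22%, below 9.56% and 15.2%.

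The replication genes changed by small amounts, with more genes lower than higher after loss of EZH2 in both lines and more higher than lower in the sgcMyc libraries. With shEZH2, 13 of 51 fell and 1 rose (median log2 fold change -0.07), in a comparison where 14.2% of the 13591 genes tested were called lower, 13.4% higher and 27.7% either way. As 14 of 51 is 27.5%, the share of replication genes called with shEZH2 lies at the share of all genes, and its split between directions is the part that departs from it. Scaled to spike-in RNA, 36.4% of all calls with shEZH2 were higher, against 48.5% with TMM. In the sgcMyc libraries, 21 of 51 rose and 8 fell over the mean of the guides (median 0.15), where 18.6% of 13948 genes were called higher, 18.7% lower and 37.3% either way. In EOL-1 with sgEZH2, 25 of 51 fell and 1 rose (median -0.11), where 11.8% of 13890 genes were called lower, 15.1% higher and 26.9% either way. The median over all genes tested was 0.00, 0.00 and 0.01 in these comparisons. Together the 51 genes took 0.644 to 0.645% of gene counts in shEZH2 libraries against 0.698 to 0.703% in EV, 0.491 to 0.503% in sgcMyc libraries against 0.470 to 0.471% in sgEV, and 0.675 to 0.678% in sgEZH2 libraries against 0.755 to 0.756% in sgEV of EOL-1. In bulk RNA, fewer cells in S phase and less RNA of these genes per cell cannot be told apart.

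**Figure D2:**
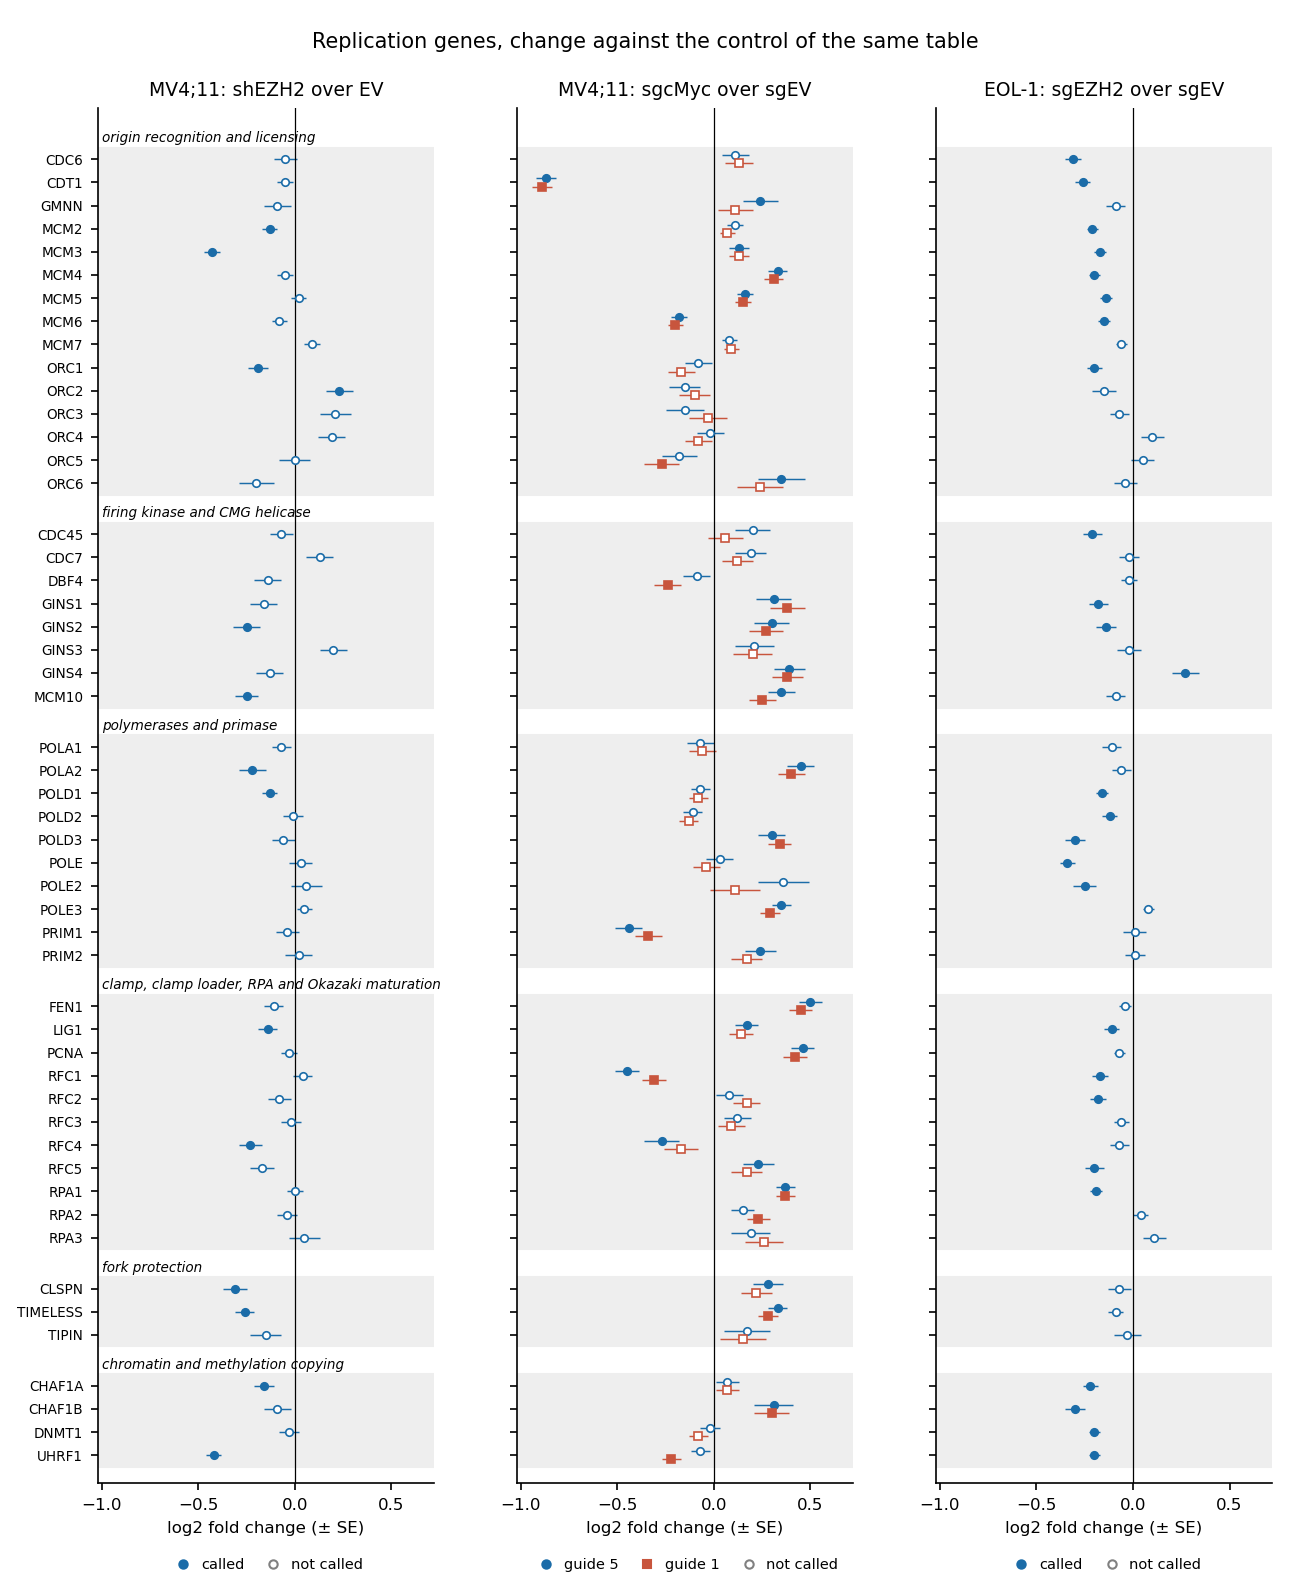
Log2 fold change (horizontal axis, ± SE) of each of 51 replication genes, grouped by role, in shEZH2 over EV libraries of MV4;11, in sgcMyc over sgEV libraries for guide 5 and guide 1, and in sgEZH2 over sgEV libraries of EOL-1. Filled points passed an adjusted p of 0.05; most shEZH2 and sgEZH2 points lie left of 0, and CDT1 lies far left of all others in the sgcMyc panel, at -0.87 with guide 5 and -0.89 with guide 1.

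Loss of EZH2 in MV4;11 lowered a few replication genes clearly and left most close to their control. The largest falls were in MCM3, a subunit of the helicase ring, and UHRF1, the reader of half-methylated DNA that brings DNMT1 to the fork. MCM3 stood at 202 and 205 CPM in shEZH2 libraries, against 276 and 273 CPM in EV libraries (log2 fold change -0.43 ± 0.04, adjusted p = 1.29e-05). UHRF1 stood at 337 and 333 CPM in shEZH2 libraries, against 449.7 and 447 CPM in EV libraries (-0.42 ± 0.04, adjusted p = 1.15e-05). For both genes the replicates of a group lie close together and the groups lie far apart. TIMELESS and CLSPN, which hold the moving fork together and pass on checkpoint signals, came next. TIMELESS stood at 104 and 105 CPM in shEZH2 libraries, against 127 and 124 CPM in EV libraries (-0.26 ± 0.05, adjusted p = 0.00184). CLSPN stood at 35.5 and 37.3 CPM in shEZH2 libraries, against 45.9 and 44.5 CPM in EV libraries (-0.31 ± 0.06, adjusted p = 0.00354). Their partner TIPIN, at -0.15 ± 0.08 with adjusted p = 0.21, did not pass.

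Among the licensing genes, 3 of 15 fell with shEZH2 and 1 rose. That is 26.7% called either way, near the 27.7% of all genes tested. MCM2 stood at 366 and 376 CPM in shEZH2 libraries, against 410.2 and 404 CPM in EV libraries (-0.13 ± 0.04, adjusted p = 0.0218). ORC1, the ATPase subunit of ORC, stood at 54.8 and 55.3 CPM in shEZH2 libraries, against 63.4 and 61.9 CPM in EV libraries (-0.19 ± 0.05, adjusted p = 0.0251). Both showed no overlap between the groups, as did 63.8% of all genes tested, and each fall was small. ORC2, a core subunit of ORC, was the one that rose, at 32.1 and 30.2 CPM in shEZH2 libraries, against 26.3 and 26.9 CPM in EV libraries (0.23 ± 0.07, adjusted p = 0.0353). ORC3 and ORC4 had values in the same direction as ORC2 without passing (0.21 ± 0.08, adjusted p = 0.0752, and 0.19 ± 0.07, adjusted p = 0.0638), and ORC5 and ORC6 stood at -0.00 ± 0.08 and -0.20 ± 0.09, also not called. The other subunits of the ring did not pass. MCM4 stood at 709 and 705 CPM in shEZH2 libraries, against 733 and 733 CPM in EV libraries (-0.05 ± 0.04, adjusted p = 0.332). MCM5 stood at 325 and 330.2 CPM in shEZH2 libraries, against 316 and 332 CPM in EV libraries (0.02 ± 0.04, adjusted p = 0.798). MCM6 stood at 369.5 and 371 CPM in shEZH2 libraries, against 396 and 388 CPM in EV libraries (-0.08 ± 0.04, adjusted p = 0.126). The groups overlapped for MCM5, while MCM4 and MCM6 were lower in both shEZH2 libraries. MCM7 was higher in both, at 500.4 and 503 CPM in shEZH2 libraries, against 470.3 and 472 CPM in EV libraries (0.09 ± 0.04, adjusted p = 0.0903). CDC6, CDT1 and GMNN stood at -0.05 ± 0.06, -0.05 ± 0.04 and -0.09 ± 0.07, none of them called.

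Of the firing and helicase genes, GINS2 and MCM10 fell with shEZH2, or 25% of the group, against 14.2% of all genes tested. GINS2, a subunit of the GINS complex that travels with CDC45, stood at 37.3 and 40.6 CPM in shEZH2 libraries, against 46.2 and 46.3 CPM in EV libraries (-0.25 ± 0.07, adjusted p = 0.0156). MCM10, which helps the loaded helicase to start, stood at 53.4 and 49.7 CPM in shEZH2 libraries, against 62.7 and 59.5 CPM in EV libraries (-0.25 ± 0.06, adjusted p = 0.0116). The other 6 of this group were not called, and ran from -0.16 ± 0.07 for GINS1 to 0.20 ± 0.07 for GINS3. Among polymerase genes, POLA2, the accessory subunit of polymerase alpha, stood at 56.1 and 62.3 CPM in shEZH2 libraries, against 72.5 and 65.8 CPM in EV libraries (-0.22 ± 0.07, adjusted p = 0.0308), and POLD1, the catalytic subunit of polymerase delta, fell (-0.13 ± 0.04, adjusted p = 0.0292). The other 8 ran from -0.07 ± 0.05 for POLA1 to 0.06 ± 0.08 for POLE2, and none passed. RFC4, a small subunit of the loader that opens the PCNA clamp, stood at 34.9 and 35.5 CPM in shEZH2 libraries, against 40.6 and 41.9 CPM in EV libraries (-0.23 ± 0.06, adjusted p = 0.0193). LIG1, the ligase of lagging strand pieces, stood at 143 and 145 CPM in shEZH2 libraries, against 154 and 164 CPM in EV libraries (-0.14 ± 0.05, adjusted p = 0.0375). The remaining 9 genes of clamp, loader, RPA and maturation lay between -0.17 ± 0.06 for RFC5 and 0.05 ± 0.08 for RPA3. CHAF1A, the large subunit of the chromatin assembly factor, fell (-0.16 ± 0.05, adjusted p = 0.0324), while CHAF1B at -0.09 ± 0.07 and DNMT1 at -0.03 ± 0.05 did not pass. The calls for MCM3, UHRF1 and TIMELESS held under all 10 alternatives, and the other 11 did not. The count of genes that fell dropped to 5 without the first shEZH2 library, 6 without the second, 5 when libraries were scaled to spike-in RNA and 3 in DESeq2, and no called gene changed its sign. The rise of ORC2 was lost without either shEZH2 library, without the first EV library, with spike-in scaling and in DESeq2.

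In the sgcMyc libraries the most prominent change was in CDT1, the loading factor that brings the helicase ring to ORC. CDT1 stood at 119 and 118 CPM with guide 5 and 113 and 119.6 CPM with guide 1, against 215 and 217 CPM in sgEV libraries, about 0.544 of the control level (-0.88 ± 0.04, adjusted p = 5.43e-09). All 4 sgcMyc libraries lie within 7 CPM of each other and far below the controls. GMNN, the inhibitor of CDT1, gave 0.18 ± 0.07 and did not pass over the mean of the guides (adjusted p = 0.0834), though it passed with guide 5 (0.24 ± 0.09, adjusted p = 0.0455). CDC6, which loads the ring together with CDT1, was not called (0.12 ± 0.06, adjusted p = 0.148). The ring itself was split. MCM4 stood at 506 and 509.8 CPM with guide 5 and 498 and 502 CPM with guide 1, against 414 and 393 CPM in sgEV libraries (0.32 ± 0.04, adjusted p = 4.46e-05). MCM5 stood at 234 and 233 CPM with guide 5 and 234 and 230.3 CPM with guide 1, against 212 and 207 CPM in sgEV libraries (0.15 ± 0.04, adjusted p = 0.00706). MCM3 stood at 174 and 183 CPM with guide 5 and 178 and 177 CPM with guide 1, against 166 and 160.1 CPM in sgEV libraries (0.13 ± 0.04, adjusted p = 0.0262). These 3 rose, whereas MCM6 fell and MCM2 and MCM7 were not called. Within the ring only the call for MCM4 held under all 12 alternatives, and the fall of MCM6 was not called with spike-in scaling. MCM6 stood at 251 and 248 CPM with guide 5 and 244 and 247 CPM with guide 1, against 279.6 and 286 CPM in sgEV libraries (-0.19 ± 0.04, adjusted p = 0.00136). MCM2 stood at 284 and 274 CPM with guide 5 and 269.7 and 273 CPM with guide 1, against 255 and 260.3 CPM in sgEV libraries (0.09 ± 0.04, adjusted p = 0.071). MCM7 stood at 319 and 319 CPM with guide 5 and 318 and 327 CPM with guide 1, against 302 and 304 CPM in sgEV libraries (0.08 ± 0.04, adjusted p = 0.101). Of ORC, only ORC6 rose (0.29 ± 0.10, adjusted p = 0.0396) and only ORC5 fell (-0.22 ± 0.08, adjusted p = 0.0439), and ORC1 to ORC4 lay between -0.13 ± 0.06 for ORC1 and -0.05 ± 0.06 for ORC4. Taken by guide, ORC6 passed with guide 5 (adjusted p = 0.04) and not with guide 1 (0.14). ORC5 passed with guide 1 (adjusted p = 0.0443) and not with guide 5 (0.161), and its fall was not called with spike-in scaling.

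The largest increases were in FEN1, PCNA and POLA2. FEN1, the nuclease that trims flaps of lagging strand pieces, stood at 122 and 137 CPM with guide 5 and 124 and 126 CPM with guide 1, against 92.8 and 89.99 CPM in sgEV libraries (0.47 ± 0.05, adjusted p = 2.1e-05). PCNA, the clamp, stood at 305 and 348 CPM with guide 5 and 321 and 313 CPM with guide 1, against 237 and 239 CPM in sgEV libraries (0.44 ± 0.05, adjusted p = 2.83e-05). POLA2 stood at 46.3 and 51.7 CPM with guide 5 and 47.6 and 46.9 CPM with guide 1, against 35.5 and 36.1 CPM in sgEV libraries (0.43 ± 0.07, adjusted p = 0.000248). Each sgcMyc library lies above both controls for these 3 genes, and the wider spread is within guide 5. Taken singly, guide 5 did not overlap sgEV for 65% of all genes tested, and guide 1 for 69.4%. RPA1, the large subunit of the protein that coats single strands, stood at 192 and 193 CPM with guide 5 and 196 and 188 CPM with guide 1, against 149.5 and 148 CPM in sgEV libraries (0.37 ± 0.04, adjusted p = 1.59e-05). POLD3, an accessory subunit of polymerase delta, stood at 49.7 and 48.1 CPM with guide 5 and 50.6 and 50.2 CPM with guide 1, against 39.6 and 39.9 CPM in sgEV libraries (0.32 ± 0.06, adjusted p = 0.000779). POLE3, a small subunit of polymerase epsilon, stood at 143 and 149 CPM with guide 5 and 137 and 144 CPM with guide 1, against 114 and 116 CPM in sgEV libraries (0.32 ± 0.04, adjusted p = 0.000122). Increases also passed for RPA2 (0.19 ± 0.05, adjusted p = 0.0146), which coats single strands with RPA1, and for PRIM2 (0.20 ± 0.07, adjusted p = 0.0458), the large primase subunit. RFC5, of the clamp loader, stood at 38.05 and 36.5 CPM with guide 5 and 36.2 and 35.5 CPM with guide 1, against 33.4 and 30.2 CPM in sgEV libraries (0.20 ± 0.07, adjusted p = 0.0323). LIG1 stood at 119 and 119 CPM with guide 5 and 122 and 111 CPM with guide 1, against 105 and 107 CPM in sgEV libraries (0.15 ± 0.05, adjusted p = 0.028). No sgcMyc library of either gene overlaps its controls, which held for most genes tested with each guide. PRIM2 and PCNA have near-identical copies in the genome, and their estimated counts were whole in all 14 libraries. For 20 of the 51 genes, MCM7 and ORC4 in every library among them, an estimated count lay more than 0.005 from a whole number.

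With TMM, decreases stood beside these increases within the same complexes. When libraries were scaled to spike-in RNA, only 2 replication genes were called lower, CDT1 and PRIM1. The falls of RFC1, RFC4 and POLD2 given here were then not called. PRIM1, the catalytic subunit of primase, fell while POLA2 and PRIM2 of the same complex rose, with PRIM1 at 32.9 and 31.7 CPM with guide 5 and 34.5 and 34.5 CPM with guide 1, against 45.3 and 42.1 CPM in sgEV libraries (-0.39 ± 0.06, adjusted p = 0.000321). RFC1, the large subunit of the clamp loader, stood at 74.8 and 66.5 CPM with guide 5 and 78.1 and 77.8 CPM with guide 1, against 96.3 and 96.4 CPM in sgEV libraries (-0.38 ± 0.05, adjusted p = 0.000129). RFC4 fell too (-0.22 ± 0.08, adjusted p = 0.0483), as did POLD2 (-0.12 ± 0.04, adjusted p = 0.0422), and RFC2 and RFC3 at 0.12 ± 0.06 and 0.10 ± 0.06 did not pass. POLA1, POLD1 and POLE, the catalytic subunits of the polymerases, lay at -0.06 ± 0.06, -0.08 ± 0.04 and -0.00 ± 0.06, none called, and neither were POLE2 at 0.24 ± 0.11 or RPA3 at 0.23 ± 0.09.

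Of 8 firing and helicase genes, 4 rose in the sgcMyc libraries and none fell over the mean of the guides. Of all genes tested, 18.6% were called higher and 18.7% lower there. GINS4 stood at 32.4 and 32.8 CPM with guide 5 and 33.5 and 30.98 CPM with guide 1, against 23.6 and 25.9 CPM in sgEV libraries (0.39 ± 0.07, adjusted p = 0.00104). GINS1 stood at 27.4 and 30.02 CPM with guide 5 and 31.6 and 28.6 CPM with guide 1, against 23.6 and 22.6 CPM in sgEV libraries (0.35 ± 0.08, adjusted p = 0.00333). GINS2 stood at 32.8 and 38.4 CPM with guide 5 and 35.7 and 33.8 CPM with guide 1, against 28.2 and 29.5 CPM in sgEV libraries (0.28 ± 0.08, adjusted p = 0.0114). GINS3, the remaining subunit of that complex, gave 0.21 ± 0.09 with adjusted p = 0.0873. MCM10 stood at 48.5 and 46.1 CPM with guide 5 and 45.1 and 42.9 CPM with guide 1, against 36.2 and 37.8 CPM in sgEV libraries (0.30 ± 0.06, adjusted p = 0.002). CDC45, CDC7 and DBF4 gave 0.13 ± 0.08, 0.16 ± 0.07 and -0.17 ± 0.06, and DBF4 passed with guide 1 alone (-0.24 ± 0.07, adjusted p = 0.0252). At the fork, TIMELESS stood at 94.3 and 94.7 CPM with guide 5 and 91.4 and 91.5 CPM with guide 1, against 76.04 and 74.4 CPM in sgEV libraries (0.31 ± 0.05, adjusted p = 0.000218). CLSPN rose as well, at 35 and 32.2 CPM with guide 5 and 31.5 and 32.9 CPM with guide 1, against 28.7 and 26.5 CPM in sgEV libraries (0.25 ± 0.07, adjusted p = 0.0137), and TIPIN at 0.16 ± 0.11 did not pass. Of the chromatin copying genes, CHAF1B stood at 21.6 and 23.8 CPM with guide 5 and 21.97 and 23.04 CPM with guide 1, against 19.4 and 17.2 CPM in sgEV libraries (0.31 ± 0.08, adjusted p = 0.0116). In the same group UHRF1 fell over the mean of the guides (-0.14 ± 0.04, adjusted p = 0.0128), with a call for guide 1 (-0.22 ± 0.05, adjusted p = 0.00309) and none for guide 5 (-0.07 ± 0.05, adjusted p = 0.282), and CHAF1A at 0.07 ± 0.05 and DNMT1 at -0.05 ± 0.04 were not called.

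Each guide was also compared singly with the same 2 sgEV libraries, so their agreement is not independent. Both comparisons came from a joint fit of guide 5, guide 1 and sgEV libraries with a shared estimate of the spread. The calls for a guide therefore also depend on the libraries of the other. With guide 5, 21 rose and 5 fell, where 15.7% of all genes were called higher and 15.5% lower (31.2% either way). With guide 1, 15 rose and 7 fell, where 16.2% were called higher and 16.0% lower (32.2% either way). Both guides called 14 genes higher and 4 lower: CDT1, MCM6, PRIM1 and RFC1. Set directly against each other, guide 5 minus guide 1, 0 of 51 genes passed, where 0.409% of all genes did (0.0789% higher and 0.330% lower). Of all calls between guides 19.3% were higher with TMM, and scaling to spike-in RNA left 1 call, which was lower. DESeq2 and limma also called 0 of 51, and unadjusted p lay under 0.05 for RFC1 (-0.14 ± 0.06) and UHRF1 (0.15 ± 0.05). The differences between guides ran from -0.14 to 0.25 (POLE2, 0.25 ± 0.13). Without the first guide 5 library, PCNA and UHRF1 passed higher and RFC1 lower, and without the second UHRF1 passed. These p-values do not show that the guides act alike.

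Scaling and the control libraries weigh on the sgcMyc counts. When libraries were scaled to the 56 spike-in RNAs, the median of all genes moved by 0.12 on the log2 scale over the mean of the guides and by 0.15 for guide 5, 72.8% of all calls were then higher against 49.8% with TMM, and 26 replication genes rose and 2 fell. For guide 5 alone 78.3% of calls were then higher against 50.3% with TMM (27 replication genes higher, 1 lower), and for guide 1 alone 67.3% against 50.2% (15 higher, 1 lower). Spike-in RNA took 1.06% and 1.18% of counts in the guide 5 libraries, 1.15% and 1.18% with guide 1, and 1.22% and 1.24% in sgEV. Its share thus also varied between the replicates of guide 5. Without the first sgEV library 12 rose and 5 fell, and without the second 10 rose and 3 fell, over the mean of the guides. Without the first guide 1 library the count that fell was 4, and without the second it was 5. DESeq2 called 12 higher and 5 lower, and limma on the authors' log2 values 22 and 5. Calls for MCM4, CDT1, GINS4, PCNA, FEN1, RPA1, POLA2, PRIM1, POLD3, POLE3 and TIMELESS held under all 12 alternatives, and no called gene changed its sign under any of them. For single guides the counts moved likewise: with guide 5, 10 rose and 3 fell without either sgEV library. With guide 1, 9 rose without either sgEV library and 8 without the first guide 1 library, and 3 fell without the second sgEV library or without the first guide 1 library.

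**Figure D3:**
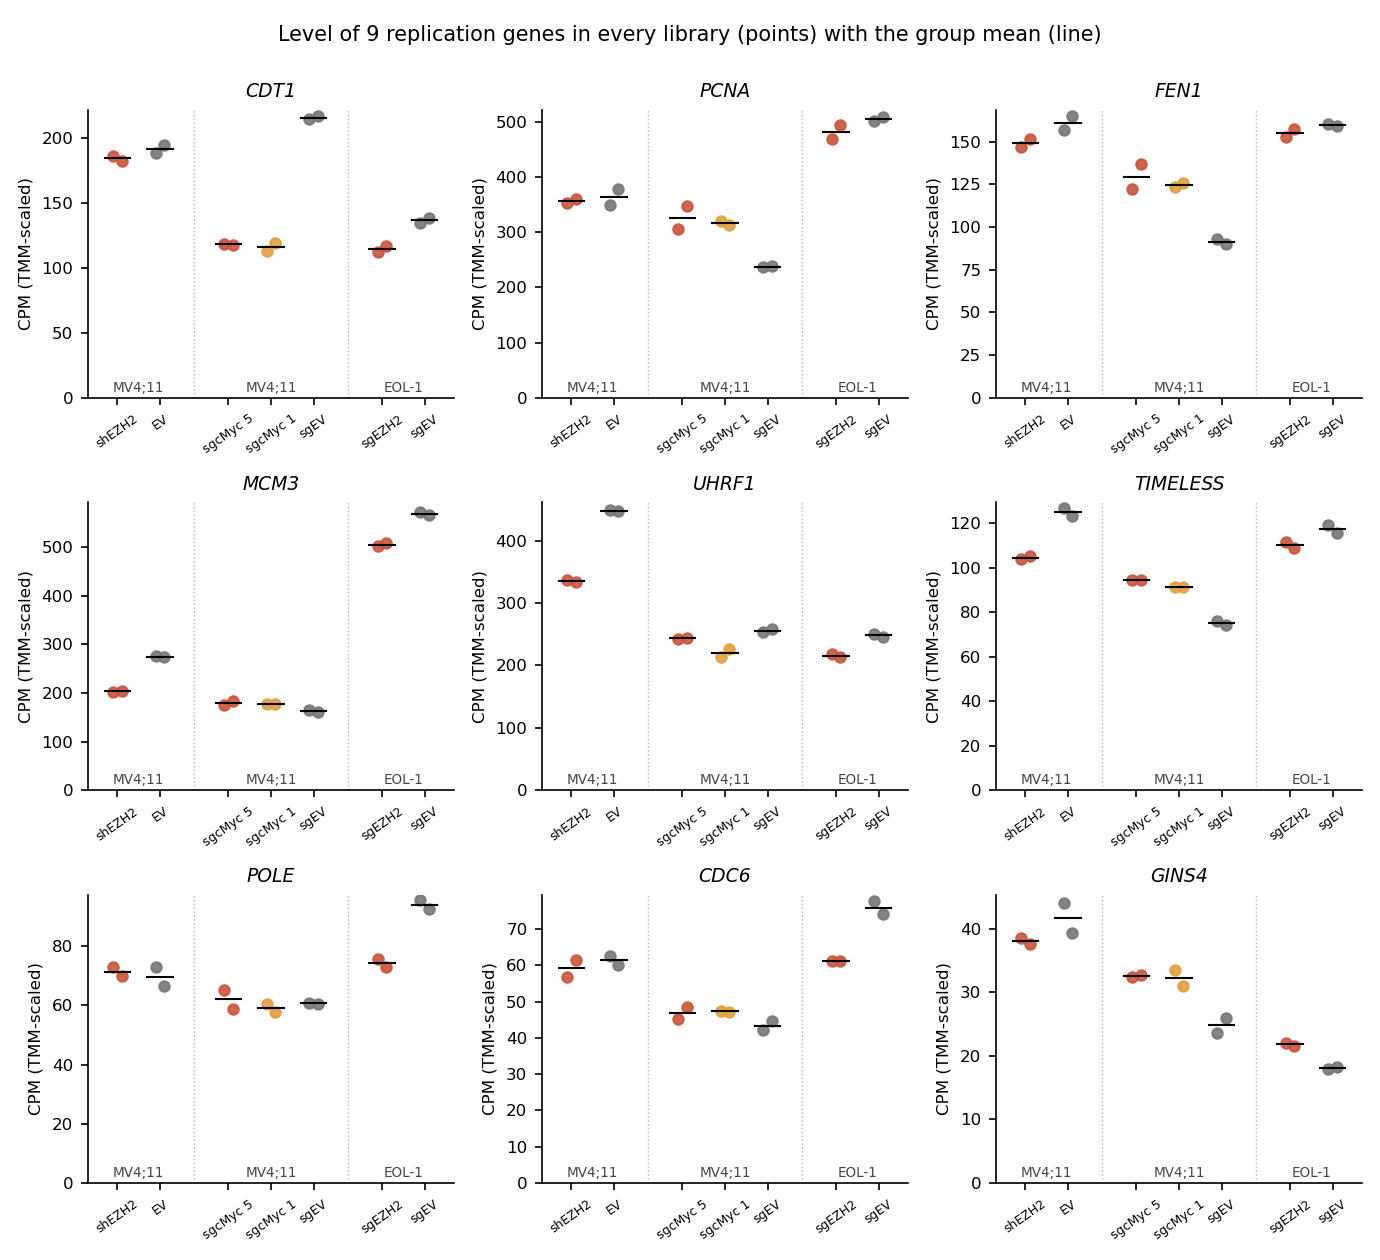
Level in every library (points, TMM-scaled CPM, axes from 0) and group mean (lines, n = 2 each) of 9 replication genes, with dotted lines between the 3 tables. CDT1 falls to 113 to 120 CPM in sgcMyc libraries against 215 to 217 CPM in sgEV, MCM3 and UHRF1 lie lower in shEZH2 than in EV libraries, and POLE and CDC6 lie lower in sgEZH2 than in sgEV libraries of EOL-1.

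In EOL-1, loss of EZH2 came with lower levels of replication genes across nearly every role. POLE, the catalytic subunit of the leading strand polymerase, fell most. POLE stood at 75.8 and 72.9 CPM in sgEZH2 libraries, against 95.5 and 92.6 CPM in sgEV libraries (-0.34 ± 0.04, adjusted p = 7.31e-06). POLE2, its accessory subunit, stood at 22.7 and 22.6 CPM in sgEZH2 libraries, against 27.8 and 26.3 CPM in sgEV libraries (-0.25 ± 0.06, adjusted p = 0.00565). POLD3 stood at 40.7 and 41.4 CPM in sgEZH2 libraries, against 50.9 and 49.8 CPM in sgEV libraries (-0.30 ± 0.05, adjusted p = 0.000162). For all 3 the groups lie apart by more than the spread of either group. POLD1 and POLD2 fell less (-0.16 ± 0.03, adjusted p = 0.00192, and -0.12 ± 0.04, adjusted p = 0.0165). POLE3, PRIM1, PRIM2, POLA1 and POLA2 did not pass, with values from -0.11 ± 0.05 for POLA1 to 0.08 ± 0.03 for POLE3.

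Of 15 licensing genes in EOL-1, 8 fell and none rose, where 11.8% of all genes were called lower and 15.1% higher. CDC6, the ATPase that loads the ring with ORC, stood at 61.1 and 61.1 CPM in sgEZH2 libraries, against 77.6 and 74.2 CPM in sgEV libraries (-0.31 ± 0.04, adjusted p = 3.37e-05). CDT1 stood at 113 and 117 CPM in sgEZH2 libraries, against 135 and 139 CPM in sgEV libraries (-0.26 ± 0.04, adjusted p = 5.29e-05). Both loading factors thus fell, and GMNN gave -0.09 ± 0.05 with adjusted p = 0.17. Within the ring, 5 of 6 subunits fell. MCM2 stood at 419 and 419.8 CPM in sgEZH2 libraries, against 487 and 481 CPM in sgEV libraries (-0.21 ± 0.03, adjusted p = 4.77e-05). MCM3 stood at 503 and 509 CPM in sgEZH2 libraries, against 572 and 567 CPM in sgEV libraries (-0.17 ± 0.03, adjusted p = 0.000343). MCM4 stood at 639 and 637 CPM in sgEZH2 libraries, against 731 and 731 CPM in sgEV libraries (-0.20 ± 0.03, adjusted p = 8.4e-05). These 3 falls were of like size, and no sgEZH2 library reached its controls. In EOL-1 the groups did not overlap for 62.1% of all genes tested. MCM5 stood at 316 and 324 CPM in sgEZH2 libraries, against 346 and 360.5 CPM in sgEV libraries (-0.14 ± 0.03, adjusted p = 0.00274). MCM6 stood at 410.5 and 399 CPM in sgEZH2 libraries, against 445 and 454 CPM in sgEV libraries (-0.15 ± 0.03, adjusted p = 0.00142). MCM7 stood at 634 and 650.3 CPM in sgEZH2 libraries, against 674 and 667 CPM in sgEV libraries (-0.06 ± 0.03, adjusted p = 0.163). MCM7 was thus the one subunit that did not pass. ORC1 fell (-0.20 ± 0.04, adjusted p = 0.00188), and ORC2 to ORC6, which ran from -0.15 ± 0.06 for ORC2 to 0.10 ± 0.06 for ORC4, did not.

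Among firing and helicase genes of EOL-1, 3 of 8 fell and 1 rose, where 11.8% of all genes were called lower and 15.1% higher. CDC45, which binds the ring when it becomes active, stood at 51.7 and 48.1 CPM in sgEZH2 libraries, against 57.4 and 58.5 CPM in sgEV libraries (-0.21 ± 0.05, adjusted p = 0.00293). GINS1 stood at 45.2 and 42.7 CPM in sgEZH2 libraries, against 49.6 and 49.8 CPM in sgEV libraries (-0.18 ± 0.05, adjusted p = 0.0129). GINS2 stood at 65.8 and 69.8 CPM in sgEZH2 libraries, against 77.8 and 72.1 CPM in sgEV libraries (-0.14 ± 0.05, adjusted p = 0.033). GINS4 went the other way from its partners GINS1 and GINS2, at 22 and 21.6 CPM in sgEZH2 libraries, against 17.98 and 18.3 CPM in sgEV libraries (0.27 ± 0.07, adjusted p = 0.00652). GINS3, MCM10, CDC7 and DBF4 lay between -0.09 ± 0.05 for MCM10 and -0.02 ± 0.05 for CDC7 and were not called. Of 11 clamp, loader, RPA and maturation genes 5 fell (45.5%, against 11.8% of all genes) and none rose. RPA1 stood at 195 and 194 CPM in sgEZH2 libraries, against 221 and 224 CPM in sgEV libraries (-0.19 ± 0.03, adjusted p = 0.000163). RFC5 stood at 51.3 and 51.4 CPM in sgEZH2 libraries, against 59.8 and 58.1 CPM in sgEV libraries (-0.20 ± 0.05, adjusted p = 0.00331). LIG1 stood at 116 and 115 CPM in sgEZH2 libraries, against 123 and 127 CPM in sgEV libraries (-0.11 ± 0.04, adjusted p = 0.0301). RFC1 (-0.17 ± 0.04, adjusted p = 0.00421) and RFC2 (-0.18 ± 0.04, adjusted p = 0.00527) fell as well. PCNA at -0.07 ± 0.03, FEN1 at -0.04 ± 0.03, RFC3, RFC4, RPA2 and RPA3 did not pass. All 4 genes that copy chromatin and methylation fell. CHAF1B stood at 35.2 and 32.8 CPM in sgEZH2 libraries, against 41.7 and 42.3 CPM in sgEV libraries (-0.30 ± 0.05, adjusted p = 0.000343). CHAF1A stood at 85.5 and 89.2 CPM in sgEZH2 libraries, against 102 and 102 CPM in sgEV libraries (-0.22 ± 0.04, adjusted p = 0.000458). UHRF1 stood at 218 and 214 CPM in sgEZH2 libraries, against 250.5 and 246 CPM in sgEV libraries (-0.20 ± 0.03, adjusted p = 8.93e-05). The groups do not overlap in any of these, nor in 62.1% of all genes tested. DNMT1, the enzyme that copies methyl marks onto the new strand, stood at 229 and 224 CPM in sgEZH2 libraries, against 259.9 and 261 CPM in sgEV libraries (-0.20 ± 0.03, adjusted p = 9.84e-05). None of the fork protection genes passed in EOL-1, where TIMELESS, CLSPN and TIPIN gave -0.09 ± 0.04, -0.07 ± 0.06 and -0.03 ± 0.07. Calls held under all 9 alternatives for 15 of the 26 genes, and DESeq2 called 20 lower and 0 higher. Spike-in scaling was not among these 9, since no spike-in RNA was listed for EOL-1. Leaving out single libraries gave 18 to 27 that fell, and 2 that rose without either sgEZH2 library.

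Of the 13 replication genes that fell with shEZH2 in MV4;11 and the 25 that fell with sgEZH2 in EOL-1, 8 were in both lists, which is 61.5% of the 13 and 32% of the 25. As 49% of all 51 genes fell in EOL-1 and 25.5% with shEZH2, the overlap lies near those shares and was not tested. The 8 are MCM2, MCM3, ORC1, GINS2, LIG1, POLD1, UHRF1 and CHAF1A. In MV4;11 alone, 5 fell (MCM10, RFC4, POLA2, TIMELESS and CLSPN), in EOL-1 alone 17 fell, and 19 genes were called in neither line. The difference of the effects was then tested itself, as an interaction over both tables. In it 16 of 51 genes (31.4%) passed, where 26.5% of 13543 genes did. Of these, 13 differed upwards, the MV4;11 effect being the higher, and 3 downwards, against 12.5% and 14.1% of all genes. Hairpin and guide RNA differ along with the line, so line and tool cannot be told apart.

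The genes with a higher effect in MV4;11 were mostly ones that fell in EOL-1 alone. POLE differed by 0.38 ± 0.07, adjusted p = 0.00111, being 0.03 ± 0.06 in MV4;11 and -0.34 ± 0.04 in EOL-1. POLE2 (0.32 ± 0.10, adjusted p = 0.0243), CDC6 (0.27 ± 0.07, adjusted p = 0.0131), POLD3 (0.25 ± 0.07, adjusted p = 0.0198) and RFC1 (0.22 ± 0.06, adjusted p = 0.0163) followed the same order, as did CDT1 (0.21 ± 0.05), RPA1 (0.20 ± 0.05), DNMT1 (0.18 ± 0.06), MCM5 (0.17 ± 0.05) and MCM4 (0.15 ± 0.04). ORC2 differed by 0.38 ± 0.10, adjusted p = 0.00997, at 0.23 ± 0.07 in MV4;11 and -0.15 ± 0.06 in EOL-1, and ORC3 by 0.29 ± 0.09, adjusted p = 0.0303. MCM7 passed the test of the difference (0.16 ± 0.04) without being called in either line. A lower effect in MV4;11 was found for GINS4 (-0.39 ± 0.09, adjusted p = 0.0062), MCM3 (-0.25 ± 0.04, adjusted p = 0.000589) and UHRF1 (-0.21 ± 0.04, adjusted p = 0.00271). MCM3 and UHRF1 fell in both lines and more in MV4;11, while GINS4 rose in EOL-1 alone. TIMELESS and CLSPN, called lower in MV4;11 alone, did not pass the test of the difference (-0.16 ± 0.06, adjusted p = 0.0508, and -0.24 ± 0.09, adjusted p = 0.0527). Of 12 genes with a promoter window among these 16, 9 held E2F letters, against 11 of the 33 others. Calls held under all 12 alternatives for MCM3, RPA1, POLE and UHRF1. Fewer genes passed upwards without the first shEZH2 library (3), the second (6), the first sgEV library of EOL-1 (6) or its second (7), and in DESeq2 (6), and 5 passed downwards without the second EV library.

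**Figure D4:**
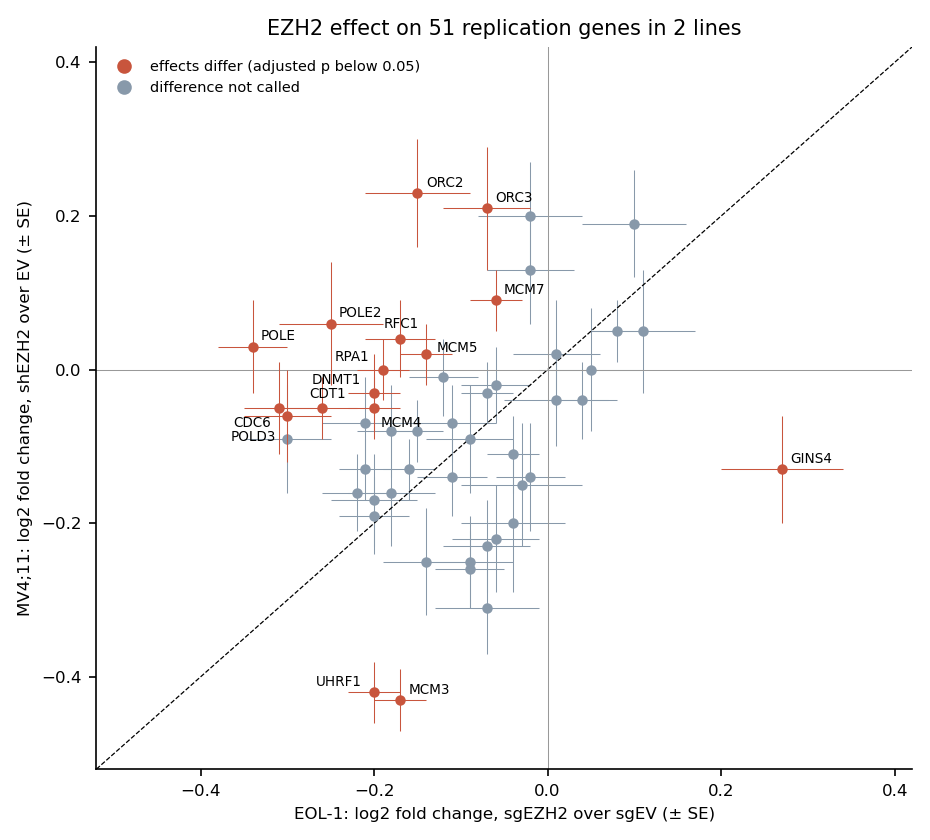
Log2 fold change of 51 replication genes with sgEZH2 in EOL-1 (horizontal axis) and with shEZH2 in MV4;11 (vertical axis), ± SE, n = 2 libraries per group. Red points are the 16 genes whose effects differed at an adjusted p below 0.05; POLE lies at -0.34 in EOL-1 and 0.03 in MV4;11, and MCM3 and UHRF1 lie near -0.4 in MV4;11 below the dashed line of equal effect.

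Calls in different comparisons are set side by side here, with no test of their overlap. Of the 21 that rose in sgcMyc libraries, 7 fell with shEZH2 (MCM3, MCM10, GINS2, LIG1, POLA2, TIMELESS and CLSPN), which is 33.3% of the 21, where 25.5% of all 51 did, and 53.8% of the 13. In EOL-1, 10 of these 21 (47.6%) fell with sgEZH2, where 49% of all 51 did: MCM3, MCM4, MCM5, GINS1, GINS2, LIG1, RFC5, RPA1, POLD3 and CHAF1B. Calls in the same direction were also found. UHRF1 fell in all 3 settings, in sgcMyc libraries with guide 1 and over the mean of the guides, RFC4 fell in sgcMyc and shEZH2 libraries, and CDT1, MCM6, RFC1 and POLD2 fell in sgcMyc libraries and in EOL-1. MCM3, GINS2, LIG1 and UHRF1 were the 4 genes called in each of the 3 main comparisons. In sgcMyc libraries none of these 4 calls held under every alternative. MCM3 and LIG1 were not called with guide 1 (edgeR, adjusted p = 0.0619 and 0.0797). With shEZH2 the calls for GINS2 and LIG1 did not hold under every alternative either. Another 11 genes were called in none of the 3 main comparisons: MCM7, GMNN, ORC3, ORC4, GINS3, RFC3, RPA3, POLA1, DBF4, CDC7 and TIPIN. No library is shared between these 3 comparisons.

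E2F letters were found among genes called in either direction and among those not called. They stood in 12 of 22 windows of genes that fell in EOL-1 and in 8 of 23 of those not called there. With shEZH2 they stood in 7 of 13 windows of genes that fell and 13 of 31 of those not called. In sgcMyc libraries they stood in 7 of 16 windows of genes that rose, 3 of 8 that fell and 10 of 21 not called. The CDT1, PCNA and POLE stretches printed above each hold 1 E2F match. CDT1 fell in the sgcMyc libraries and in EOL-1, PCNA rose in the sgcMyc libraries alone, and POLE fell in EOL-1 alone. Whether the matches bear on these changes was not tested. E-box letters stood in 3 of the 16 windows of genes that rose in sgcMyc libraries (FEN1, RPA1 and TIMELESS). They stood in 0 of the 8 that fell and in 4 of the 21 not called, so genes that rose and genes not called held them about equally often.

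Genes next to the core machinery were read from lists fixed with the study's earlier results known. Their counts stand beside 14.2% lower and 13.4% higher of all genes with shEZH2, 18.7% and 18.6% in sgcMyc libraries, and 11.8% and 15.1% in EOL-1. Of 45 tested genes of accessory replication factors, 15 fell and 4 rose with shEZH2 (median -0.08), 4 fell and 15 rose in sgcMyc libraries (median 0.09), and 23 fell and 2 rose in EOL-1 (median -0.13). With shEZH2 the smallest p were those of SUPT16H (-0.39 ± 0.04, adjusted p = 1.83e-05), a histone chaperone subunit, and FAM111A (-0.42 ± 0.05, adjusted p = 0.000189), a protease that acts at forks. In sgcMyc libraries they were those of POLD4 (0.37 ± 0.06, adjusted p = 0.000238), the smallest subunit of polymerase delta, and DSCC1 (0.47 ± 0.07, adjusted p = 0.000327), of an alternative clamp loader. In EOL-1 POLD4 rose (0.70 ± 0.07, adjusted p = 3.22e-07), against the direction of POLD1 to POLD3, and TICRR, needed for origin firing, fell (-0.36 ± 0.06, adjusted p = 0.000207).

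Of 11 genes that supply deoxynucleotides, 9 rose and 0 fell in sgcMyc libraries (median 0.29), where 18.6% and 18.7% of all genes did. Among them were TK1 (0.46 ± 0.06, adjusted p = 9.47e-05) and TYMS (0.33 ± 0.04, adjusted p = 0.000103), which serve the making of thymidylate, and SAMHD1 (0.95 ± 0.04, adjusted p = 2.6e-09), which breaks deoxynucleotides down. With shEZH2, 5 of 11 fell and 2 rose (median -0.13). RRM2, the S phase subunit of ribonucleotide reductase, fell (-0.33 ± 0.04, adjusted p = 7.47e-05) along with TK1 (-0.40 ± 0.05, adjusted p = 0.000232), while RRM2B, the subunit induced by DNA damage, rose (0.65 ± 0.05, adjusted p = 3.03e-06). In EOL-1, 3 of 11 fell and 2 rose (median -0.08), with SAMHD1 at 1.03 ± 0.03, adjusted p = 5.92e-14 and TYMS at -0.17 ± 0.03, adjusted p = 0.000534.

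Of the regulators of S phase entry, 14 of 31 fell in EOL-1 and 2 rose (median -0.11), the 2 being CDKN1A, an inhibitor of cyclin-dependent kinases (1.65 ± 0.04, adjusted p = 1.54e-15), and CCND2, a D-type cyclin (3.44 ± 0.17, adjusted p = 1.76e-11). CDK6 (-0.37 ± 0.04, adjusted p = 1.5e-06) and CDK2 (-0.34 ± 0.05, adjusted p = 1.87e-05) were among those that fell. In sgcMyc libraries 12 of 33 rose and 6 fell (median 0.13), with CCND2 (-0.93 ± 0.07, adjusted p = 5.51e-07) and CCND1 (-1.95 ± 0.16, adjusted p = 1.32e-06) lower, and CCNE2, an E-type cyclin (0.71 ± 0.09, adjusted p = 6.55e-05), and E2F7, a repressor of the E2F family (0.74 ± 0.11, adjusted p = 0.00017), higher. With shEZH2, 8 of 32 fell and 2 rose (median -0.06), with CDKN2D (-0.94 ± 0.09, adjusted p = 2.5e-05) and CDKN2C (-0.34 ± 0.06, adjusted p = 0.00174), which inhibit CDK4 and CDK6, and RBL1 (-0.32 ± 0.05, adjusted p = 0.000883), a relative of the retinoblastoma protein, all lower. Those 10 calls are 31.2% of the list, near the 27.7% of all genes called. Few of the 13 replication checkpoint genes were called, with 1 lower with shEZH2 (PKMYT1, -0.30 ± 0.07), 1 higher and 1 lower in sgcMyc libraries (RHNO1, 0.39 ± 0.06, and RAD17, -0.28 ± 0.06), and 3 lower in EOL-1 (CHEK1, -0.21 ± 0.04, WEE1, -0.19 ± 0.04, and RAD17, -0.19 ± 0.06).

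The 2 control groups of MV4;11 lay apart in nearly all of these genes. In unscaled CPM, 50 of 51 genes were lower in sgEV than in EV libraries, with a median ratio of 0.65 and a range of 0.47 to 1.11. For 49 of them both sgEV libraries lay below both EV libraries, as they did for 37.9% of 12238 genes above 1 CPM in both groups. Over these 12238 genes the median ratio was 1.00, and 6137 were lower in sgEV. The lowest ratios were those of POLE2 (10.5 in sgEV and 22.3 in EV), GINS1 (23.1 in sgEV and 46.8 in EV) and POLA2 (35.8 in sgEV and 69.9 in EV). CDT1 alone lay higher in both sgEV libraries, at a mean of 216 CPM in sgEV and 194 CPM in EV. The tables were processed separately, no test was made across them, and the vector and the table cannot be told apart.

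**Figure D5:**
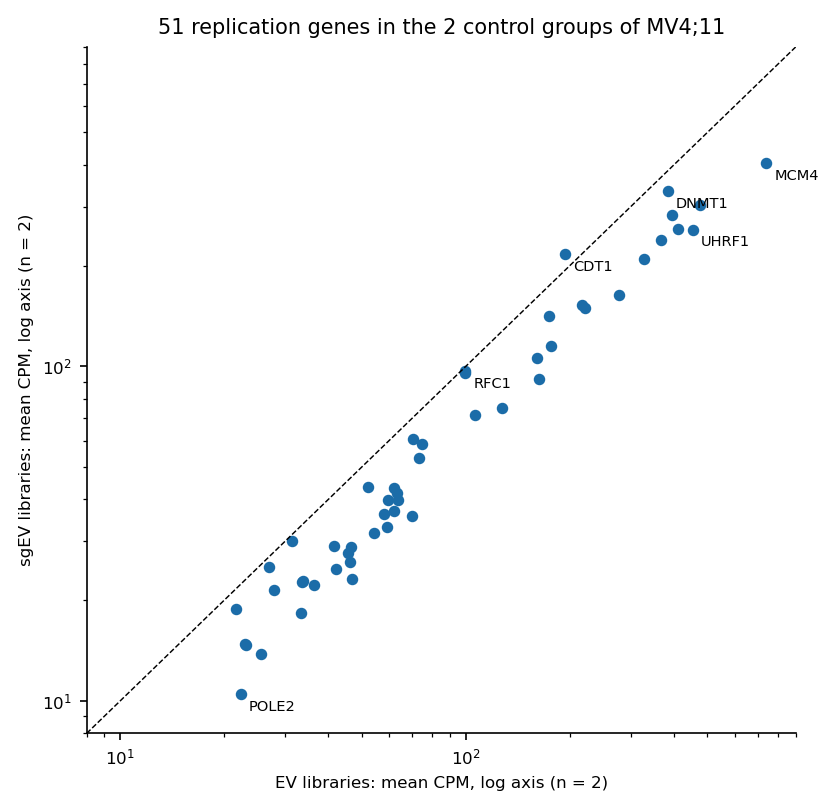
Mean unscaled CPM of 51 replication genes in the EV (horizontal axis) and sgEV (vertical axis) libraries of MV4;11, n = 2 each, on log axes, with the dashed line marking equal levels. All genes but CDT1 lie below the line, with a median ratio of 0.65.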

How the data were processed

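RNA-seq of 14 libraries was deposited as 3 tables, 1 per control. Per the file headers, raw columns hold estimated counts (expected counts) per gene, deposited by the authors, and normalised columns hold log2 values the authors made. RSEM, DESeq and hg19 are named in the submitters' processing notes. With no version, annotation, strand setting or normalisation method given in the sources used here, overlapping genes cannot be separated. Columns were matched to samples by target, guide and replicate number. Date-like symbols stood in 18 rows of a table, and 56 spike-in rows stayed out of tests. Replicates differed by more than sampling noise (chi-square per degree of freedom 1.47 to 5.47), so none was merged.

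Counts were rounded, filtered (filterByExpr), scaled by TMM and fitted within each table with edgeR 4.0.16 (quasi-likelihood, R 4.3.3). Members, lists and alternatives were chosen with earlier results of these data known. Named genes are the called members, up to 10 per comparison in full by size of change, those called both ways, MCM2 to MCM7, and up to 4 per further list by p. Alternatives were DESeq2 1.42.0, its size factors, spike-in scaling, no filter, limma 3.58.1 on the log2 values, a replicate block, fits on 2 groups and single libraries left out. On simulated data, edgeR recovered 53.7%, 64.2% and 70.1% of changes of 0.3 (log2) for shEZH2, guide 1 and EOL-1. Promoters are RefSeq, GRCh38.p14; the hg19 genome was not used here.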

Additional observations from a re-analysis of the deposited data

Results flagged for a closer look

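For 16 of 51 replication genes the effect of EZH2 loss differed between the lines in the interaction test (edgeR, adjusted p below 0.05). That is 31.4%, near the 26.5% of all genes tested. Calls held under every alternative for 4 of the 16, and DESeq2 called 6 higher and 2 lower. The values are the log2 effect of shEZH2 in MV4;11 minus that of sgEZH2 in EOL-1. Below 0 lay GINS4 (-0.39), MCM3 (-0.25) and UHRF1 (-0.21). Above 0 lay the polymerase genes POLE (0.38), POLE2 (0.32) and POLD3 (0.25), the licensing genes ORC2 (0.38), ORC3 (0.29), CDC6 (0.27), CDT1 (0.21), MCM5 (0.17), MCM7 (0.16) and MCM4 (0.15), and RFC1 (0.22), RPA1 (0.20) and DNMT1 (0.18). Groups held 2 libraries each, so single libraries far from their group could not be looked for.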

How the results depend on the processing

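No called replication gene changed its sign under any alternative in any comparison. Calls held under every alternative for 3 of 14 genes with shEZH2, 11 of 29 over the mean of the guides, 9 of 22 with guide 1, 10 of 26 with guide 5, 15 of 26 in EOL-1 and 4 of 16 for the difference of EZH2 effects. Spike-in scaling could not be applied in EOL-1 and was not applied to the difference of effects, so these shares rest on unlike alternatives. With 2 libraries a group, changes smaller than 0.3 on the log2 scale were called for some replication genes and not for others. LIG1 was called at -0.11 ± 0.04 in EOL-1 and MCM2 at -0.13 ± 0.04 with shEZH2. ORC3 at 0.21 ± 0.08 and ORC6 at -0.20 ± 0.09 with shEZH2 were not called. The cause of the shifts below was not tested beyond the fewer libraries used.

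DESeq2 made fewer calls. Among replication genes it called 0 higher and 3 lower with shEZH2, 12 and 5 over the mean of the guides, 10 higher with guide 5, 0 higher in EOL-1 and 6 higher for the difference of EZH2 effects. Among all genes it called 905 higher and 939 lower with shEZH2, 1635 and 1584 over the mean of the guides, 1346 and 1279 with guide 1, 1312 and 1247 with guide 5, 1122 and 748 in EOL-1, and 917 and 1129 for the difference of effects. Scaling to spike-in RNA gave 0 replication genes higher and 5 lower with shEZH2, and 2 lower over the mean of the guides, 1 with guide 1 and 1 with guide 5. Of all genes it gave 805 higher with shEZH2, 1169 lower over the mean of the guides, 1015 lower with guide 1, 828 lower with guide 5, and 0 higher and 1 lower between guides, and the share of calls that were higher with shEZH2 went to 36.4%, against 48.5% with TMM. Limma on the authors' log2 values gave 5 replication genes lower over the mean of the guides and 18 genes higher between guides. A fit on the guides alone gave 6 genes higher and 15 lower between them.

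The replicate numbers were not taken as pairs, since no label ties them and correlations of same-numbered deviations were 0.20 (shEZH2 and EV), -0.01 and -0.04 (guide 1 and guide 5 with sgEV), 0.26 (between guides) and 0.07 (EOL-1). A replicate block raised the replication genes called higher with shEZH2 to 5 and the genes called between guides to 33 higher and 96 lower, and moved no other count by over 1.5 times.

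Leaving out 1 library at a time gave these ranges. With shEZH2, replication genes higher ran from 0 to 2, lower from 5 to 16, and all genes higher from 1186 to 2200. Over the mean of the guides they ran from 10 to 26 and 3 to 9, and all genes from 1427 to 3094 and 1502 to 3082. With guide 1 they ran from 8 to 22 and 3 to 10, and all genes from 1243 to 2899 and 1234 to 2859. With guide 5 they ran from 10 to 22 and 3 to 6, and all genes from 1174 to 2602 and 1186 to 2474. Between guides they ran from 0 to 2 and 0 to 1, and all genes from 4 to 417 and 3 to 455, the upper ends without the first guide 5 library. In EOL-1 they ran from 1 to 2 and 18 to 27, and all genes lower from 1020 to 1942. For the difference of EZH2 effects they ran from 3 to 11 and 3 to 5.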

Other observations

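Genes of mitosis, which follow replication in the cell cycle, were also called lower with loss of EZH2 in both lines. Of 22 such genes, 14 fell with shEZH2 and 0 rose (median log2 fold change -0.21), where 14.2% of all genes tested fell and 13.4% rose. CDC20, which opens the anaphase gate, had the smallest p (-0.93 ± 0.06, adjusted p = 1.22e-06, edgeR), and ANLN (-0.59 ± 0.05, adjusted p = 1.35e-05), a scaffold of the dividing furrow, BIRC5 (-0.43 ± 0.05, adjusted p = 5.56e-05), of the chromosomal passenger complex, and CCNB1 (-0.33 ± 0.05, adjusted p = 0.000393), a mitotic cyclin, fell as well. In EOL-1, 13 of 22 fell and 0 rose (median -0.16), where 11.8% and 15.1% of all genes did, among them FOXM1 (-0.32 ± 0.05, adjusted p = 3.45e-05), a transcription factor of mitotic genes, ESPL1 (-0.33 ± 0.05, adjusted p = 3.75e-05), the protease separase, and CENPF (-0.39 ± 0.06, adjusted p = 0.00032), a kinetochore protein. In sgcMyc libraries 7 of 22 rose and 3 fell (median 0.10), where 18.6% and 18.7% of all genes did, with ANLN (0.37 ± 0.05, adjusted p = 7.68e-05) and CDC20 (0.29 ± 0.05, adjusted p = 0.000346) higher and CENPE (-0.46 ± 0.07, adjusted p = 0.000179), a kinetochore motor, lower. Whether mitosis and replication genes differ from each other was not tested.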
